A study of Mus musculus with 3 samples.

Results

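The genes described here are the ribosomal protein genes of the mouse and their pseudogenes, looked up in PAM ChIRP-seq of ASCs. They were chosen by name from the GENCODE M1 annotation of mm9, as the genes whose name starts with Rpl or Rps and a digit, or is Rplp0, Rplp1, Rplp2 or Rpsa, without the Rps6k kinases. Names of this kind ending in -ps, with or without a number, were included. This gave 248 of 37310 annotated genes, of which 85 were parent genes and 163 were pseudogenes by name or by annotation. Of the 163 pseudogenes, 107 were annotated as pseudogenes, 55 as protein-coding genes despite a name ending in -ps, with or without a number, and 1, Rpl29-ps3, as a processed transcript. The parent genes included 7 like-named paralogues, such as Rpl3l and Rps27l, and Rps19bp1, which is not a ribosomal protein in spite of its name. Regions overlapping these genes by at least 1 bp numbered 21 of 2112 in the odd pool and 4 of 345 in the even pool, and each of them overlapped exactly 1 member.

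Ribosomal proteins are the protein part of the small and the large ribosomal subunit, and the P proteins form the stalk of the large subunit that recruits the translation factors. Their mRNAs are short, spliced and among the most abundant in growing cells. Mammalian genomes hold many processed pseudogenes of them, which are copies of spliced mRNA that were reverse transcribed and inserted elsewhere, so that they carry the exons joined and no introns.

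ChIRP-seq captures an RNA with biotinylated antisense probes and sequences the DNA that is recovered with it; here the RNA was PAM, a lncRNA expressed from a super-enhancer. ASCs are activated satellite cells, the stem cells of skeletal muscle, sorted from hindlimb muscle of Tg:Pax7-nGFP mice, in which nuclear GFP marks Pax7 expressing cells, and then cultured. The stated protocol of the odd and the even pool differed only in the probes, and sequencing depth is not known for either. Each pool received lysate of glutaraldehyde crosslinked ASCs with no further treatment. The labels give neither the age nor the number of the mice. With 1 library per pool, replicate errors could not be given and the pools could not be tested against each other. What the score of a region stands for is not stated (the lowest is 4), the reads behind it are unknown, and scores were compared within a list only. Among 7 satellite cell and myoblast markers, Des, Itga7 and Vcam1 held odd regions and Pax7, Myf5, Myod1 and Cdh15 held none, but a region is no measure of expression and the lists could not be used to check the cell type.

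The sequences that separate a copy from its parent gene are shown first, all from mm9, 5′ to 3′ on the strand of the gene. Rpl14 encodes a large subunit protein. Its pseudogene Rpl14-ps1 held the highest odd score of all members, at chr7:52580472-52580725 on the plus strand. In the first line, capitals mark the 3 bases on each side of the 3 places where exons of the Rpl14 mRNA are joined. The odd region at Rpl14 itself lay at chr9:120483163-120483416 on the plus strand, and in the second line capitals mark the bases in exon 6, the last exon, with the end of the intron before it in lower case.
Rpl14-ps1: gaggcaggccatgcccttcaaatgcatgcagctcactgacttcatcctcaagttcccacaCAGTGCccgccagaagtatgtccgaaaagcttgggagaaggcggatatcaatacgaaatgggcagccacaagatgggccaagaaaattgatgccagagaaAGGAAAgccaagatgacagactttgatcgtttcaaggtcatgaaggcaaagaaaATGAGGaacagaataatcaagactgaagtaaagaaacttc
Rpl14: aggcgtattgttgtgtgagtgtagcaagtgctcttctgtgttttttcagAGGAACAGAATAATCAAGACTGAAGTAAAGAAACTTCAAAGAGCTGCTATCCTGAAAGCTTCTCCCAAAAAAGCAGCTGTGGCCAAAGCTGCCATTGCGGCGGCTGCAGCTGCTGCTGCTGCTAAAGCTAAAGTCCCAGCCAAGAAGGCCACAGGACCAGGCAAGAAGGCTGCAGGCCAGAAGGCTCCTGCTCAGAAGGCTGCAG
The 37 bases of Rpl14 mRNA that both regions hold are the last 37 of the first line and the first 37 capitals of the second. In front of them the copy continued into joined exon sequence and the parent gene into intron.

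Rpl10a-ps1, a copy of the gene for a large subunit protein, held a region of both pools. The odd region is printed at chr1:65040741-65040994 on the minus strand, with capitals around the only joined exon boundary in it.
Rpl10a-ps1: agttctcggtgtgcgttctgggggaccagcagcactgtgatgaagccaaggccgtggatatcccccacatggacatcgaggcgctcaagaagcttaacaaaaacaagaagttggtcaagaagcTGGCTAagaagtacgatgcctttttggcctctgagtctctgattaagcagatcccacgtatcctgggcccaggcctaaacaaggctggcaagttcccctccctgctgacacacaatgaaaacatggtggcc
Rplp2 encodes 1 of the acidic stalk proteins, and its copy Rplp2-ps1 also held a region of both pools. The odd region of Rplp2-ps1, at chr12:76732048-76732301 on the minus strand, is set against bases 344 to 597 of the spliced Rplp2 transcript, and capitals mark the only 2 bases at which they differed.
Rplp2-ps1: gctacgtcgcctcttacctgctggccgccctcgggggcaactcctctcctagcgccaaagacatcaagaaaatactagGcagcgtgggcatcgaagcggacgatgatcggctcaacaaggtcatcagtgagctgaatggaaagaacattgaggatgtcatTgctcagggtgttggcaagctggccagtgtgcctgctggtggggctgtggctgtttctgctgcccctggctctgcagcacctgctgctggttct
Rplp2: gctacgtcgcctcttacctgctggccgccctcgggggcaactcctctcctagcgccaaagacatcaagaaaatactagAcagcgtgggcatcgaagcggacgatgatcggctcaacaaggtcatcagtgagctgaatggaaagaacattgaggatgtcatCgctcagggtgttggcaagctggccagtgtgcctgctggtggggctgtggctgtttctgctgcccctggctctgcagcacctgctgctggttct
For comparison, Rpl8, the gene of a large subunit protein close to the catalytic centre, had the parent region with the most unique sequence. That region, at chr15:76735223-76735476 on the plus strand, held the whole of exon 4 in capitals with intron on both sides.
Rpl8: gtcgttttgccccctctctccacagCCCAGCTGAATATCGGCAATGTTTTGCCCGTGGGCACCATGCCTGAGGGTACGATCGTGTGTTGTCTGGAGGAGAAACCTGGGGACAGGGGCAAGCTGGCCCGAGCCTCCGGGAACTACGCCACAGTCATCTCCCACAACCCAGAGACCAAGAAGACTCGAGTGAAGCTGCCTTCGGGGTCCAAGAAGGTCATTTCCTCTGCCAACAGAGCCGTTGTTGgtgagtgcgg

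In the odd pool, 14 of 85 parent genes held a region (16.5%, 95% Wilson interval 10.1% to 25.8%), against 6.46% of all annotated protein-coding genes. Of the pseudogenes, 7 of 163 did (4.29%, 2.10% to 8.60%), against 2.03% of all annotated pseudogenes. The parent genes were thus above their background. The pseudogenes were less clearly so, because 5 of the 107 annotated as pseudogenes held a region (4.67%, 2.01% to 10.5%), an interval that includes 2.03%, and 2 of the 55 annotated as protein-coding did (3.64%, 1.00% to 12.3%), an interval that includes 6.46%. In the even pool, 1 of 85 parent genes held a region (1.18%, 0.208% to 6.37%), near the 0.996% of all protein-coding genes. Of the pseudogenes, 3 of 163 held an even region (1.84%, 0.628% to 5.27%), against 0.269% of all pseudogenes. Of the 107 annotated as such, 2 did (1.87%, 0.514% to 6.56%). The intervals cover counting error only, and copies of 1 mRNA are not independent of each other.

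**Figure D1:**
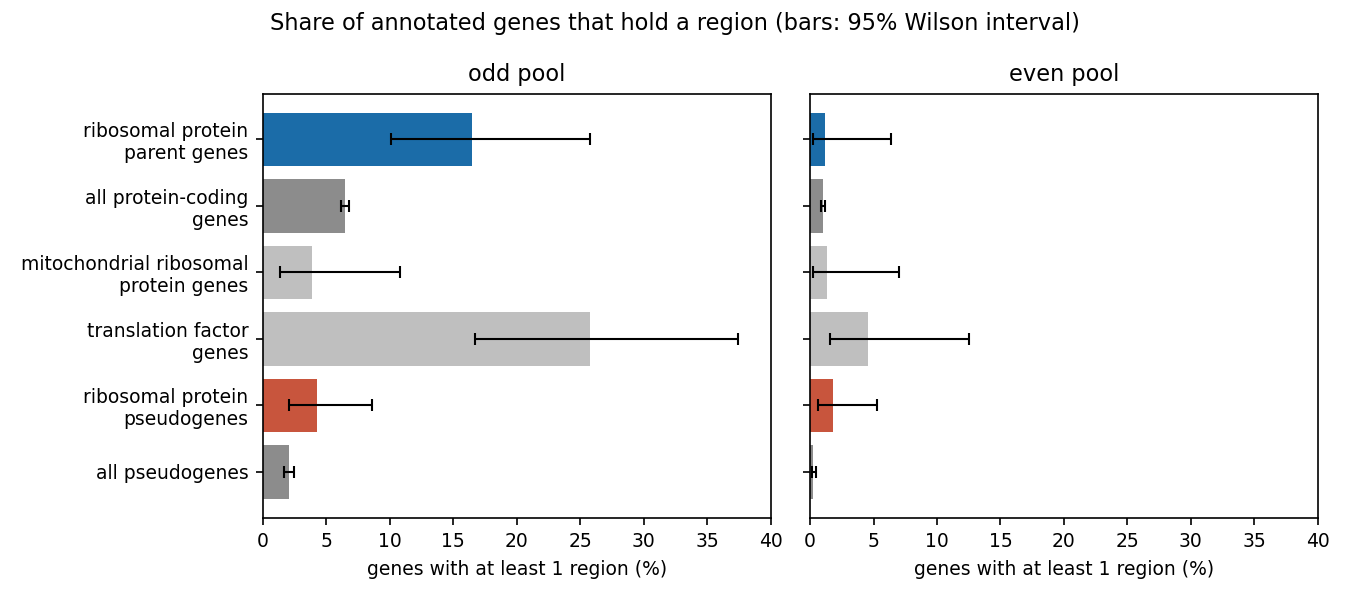
Share of annotated genes with at least 1 region, in percent, for the odd pool (left) and the even pool (right); whiskers are 95% Wilson intervals over genes. Parent genes stood at 16.5% and pseudogenes at 4.29% in the odd pool, against 6.46% of all protein-coding genes and 2.03% of all pseudogenes.

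The members are short, with a median merged exon length of 1434 bp in parent genes and 483 bp in pseudogenes, against 2736 bp in all protein-coding genes and 564 bp in all pseudogenes. Per 100 kb of exon, parent genes held 9.33 odd regions and pseudogenes 7.97, against 2.02 and 2.80 in the 2 backgrounds. Once length was taken into account, the parent genes and the pseudogenes were therefore closer to each other in the odd pool than their shares of genes were. These rates were not corrected for how much of the exon sequence is unique in mm9. The median share of unique stretches of 31 bases was 69.8% over all parent genes and 34.7% over all pseudogenes, so that no order between the 2 classes is read from the rates. In the even pool the order was the other way round, with 0.667 regions per 100 kb of exon in parent genes and 3.42 in pseudogenes, but this rested on 1 and 3 regions.

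The parent genes with an odd region were spread over both subunits. They were 6 of 48 large subunit names (12.5%, 5.86% to 24.7%), 6 of 34 small subunit names (17.6%, 8.35% to 33.5%) and 2 of the 3 stalk genes, Rplp0 and Rplp1. None of the 7 like-named paralogues and Rps19bp1 held a region of either pool. Many ribosomal protein genes carry a snoRNA, a guide of rRNA modification, in an intron. Parent genes holding an annotated snoRNA had an odd region in 5 of 30 cases (16.7%), and the others in 9 of 55 (16.4%).

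Odd scores at parent genes ran from 4 to 13 with a median of 6, which was also the median of the whole odd list, whose scores ran from 4 to 81. At pseudogenes they ran from 6 to 20 with a median of 14.0. The 4 highest odd scores of all members lay at pseudogenes, and the ranges of the 2 classes overlapped. A score above the list median was held by 5 of 7 pseudogene regions (71.4%, 35.9% to 91.8%) and 6 of 14 parent regions (42.9%, 21.4% to 67.4%). The share over all odd regions was 39.1%, which both intervals include.

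**Figure D2:**
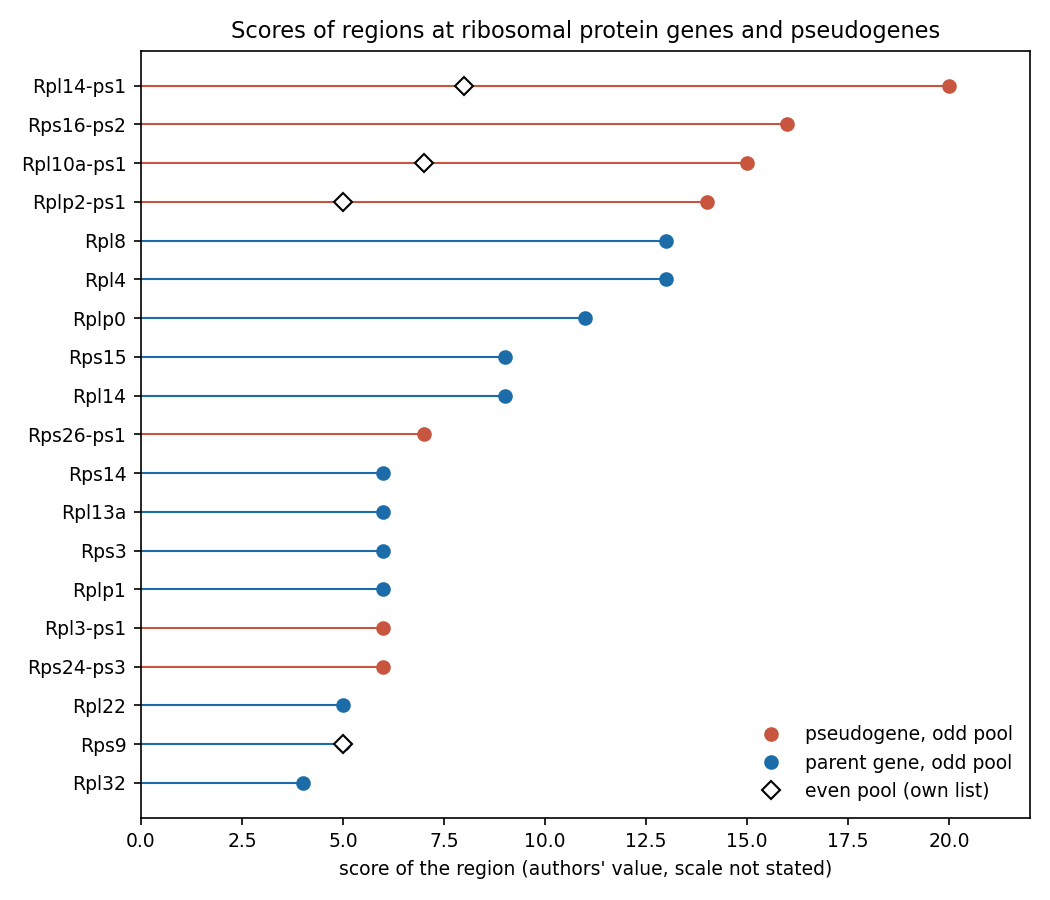
Scores of regions at ribosomal protein genes and pseudogenes (some parent genes are not shown), with odd regions as filled circles and even regions as open diamonds on their own list's scale. The 4 highest odd scores, 14 to 20, lay at pseudogenes, and even regions lay at Rpl14-ps1, Rpl10a-ps1, Rplp2-ps1 and Rps9.

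Among the pseudogenes, Rpl14-ps1 scored 20 in the odd pool, with 89 odd regions higher, and it lay within an intron of Trpm4. Rps16-ps2, a copy of a small subunit gene, scored 16 with 136 odd regions higher, at chr5:129634151-129634404 within the span of Gpr133 but on none of its exons. Rpl10a-ps1 scored 15, with 150 odd regions higher. Rplp2-ps1, which is annotated as protein-coding, scored 14. The remaining 3 were lower and nearer to the list median. Rps26-ps1, a copy of a small subunit gene annotated as protein-coding, scored 7 at chr8:109963032-109963285, within the span of Wwp2. Rpl3-ps1 and Rps24-ps3, both on the X chromosome, scored 6 at chrX:12780618-12780871 and chrX:76440550-76440803.

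Among the parent genes, Rpl8 and Rpl4 had the highest odd score, 13, with 203 odd regions higher. Rpl4, whose product lines part of the tunnel through which the new protein leaves, held its region at chr9:64026004-64026257. Rplp0, the base of the stalk, scored 11 at chr5:116010720-116010973. These 3 genes were the only parent genes above 10. Rps15 and Rpl14 scored 9, the former at chr10:79756357-79756610. Rps14, Rpl13a, Rps3 and Rplp1 scored 6, the median of the list. Rps3 is a small subunit protein at the entry of the mRNA, and Rplp1 is the partner of Rplp2 in the stalk. Among those below the median were Rpl22 and Rps9 with 5 and Rpl32 with 4.

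The even pool had regions at 4 members, and each of them overlapped the odd region of the same member. At Rpl14-ps1 the even score was 8 and the regions shared 151 bp, with the even region lying towards the start of the copy. At Rpl10a-ps1 the even score was 7, and at Rplp2-ps1 it was 5, and in both the whole even region of 248 bp lay within the odd one. At Rps9, the only parent gene among them, both pools scored 5 and shared 224 bp, with the odd region at chr7:3658242-3658495 in the 3′ UTR. Members with regions of both pools were thus 3 pseudogenes and 1 parent gene. The even pool overlapped 4 of 21 odd regions at members (19.0%, 7.67% to 40.0%), against 6.96% of all odd regions. It overlapped 3 of 7 odd regions at pseudogenes and 1 of 14 at parent genes. The odd pool overlapped 4 of 4 even regions at members (100%, 51.0% to 100%), against 42.6% of all even regions.

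On the longest annotated protein-coding transcript, 14 of 14 odd regions at parent genes touched exactly 1 exon (interval 78.5% to 100%). This was much as elsewhere, since 87.8% of the 1753 odd regions at other protein-coding genes touched an exon and 0.114% touched 2 or more. None of the 14 touched the first exon (0% to 21.5%), against 5.99% of the others. The last exon was touched by 7 of 14 (50.0%, 26.8% to 73.2%), against 62.4% of the others. Where parent genes stood apart was in the coding sequence, touched by 13 of 14 (92.9%, 68.5% to 98.7%) against 43.9%. They also did in intron bases, held by 12 of 14 (85.7%, 60.1% to 96.0%) against 36.6%. A region wholly on exons of that transcript was 1 of 14 at the parent genes and 59.8% elsewhere. Exons of these genes are short. The part that exon length, or the share of a transcript that is coding, has in these differences was not tested.

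The region of Rpl8 held a whole exon, with 219 coding bases. Those of Rplp0 and Rps15 held 224 coding bases of exon 3 of 7 and exon 2 of 3, beside 30 intron bases each. At Rpl14, 205 coding bases of the last exon followed 49 intron bases. Rps14, in exon 3 of 5, and Rps3, in exon 5 of 7, had fewer coding bases, 162 and 188. For Rps3, and likewise Rpl22, all 254 bases were on exons when any annotated transcript was allowed, so that their intron bases depended on the transcript chosen. This held in part for Rplp0 and Rps14, with 246 and 202 bases on exons of any annotated transcript. Regions at Rpl13a and Rpl32 reached past the end of the longest transcript, by 210 and 2 bases. At Rpl13a all 254 bases lay on an exon of another transcript. Rps9 was the only parent gene whose region held no coding base.

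**Figure D3:**
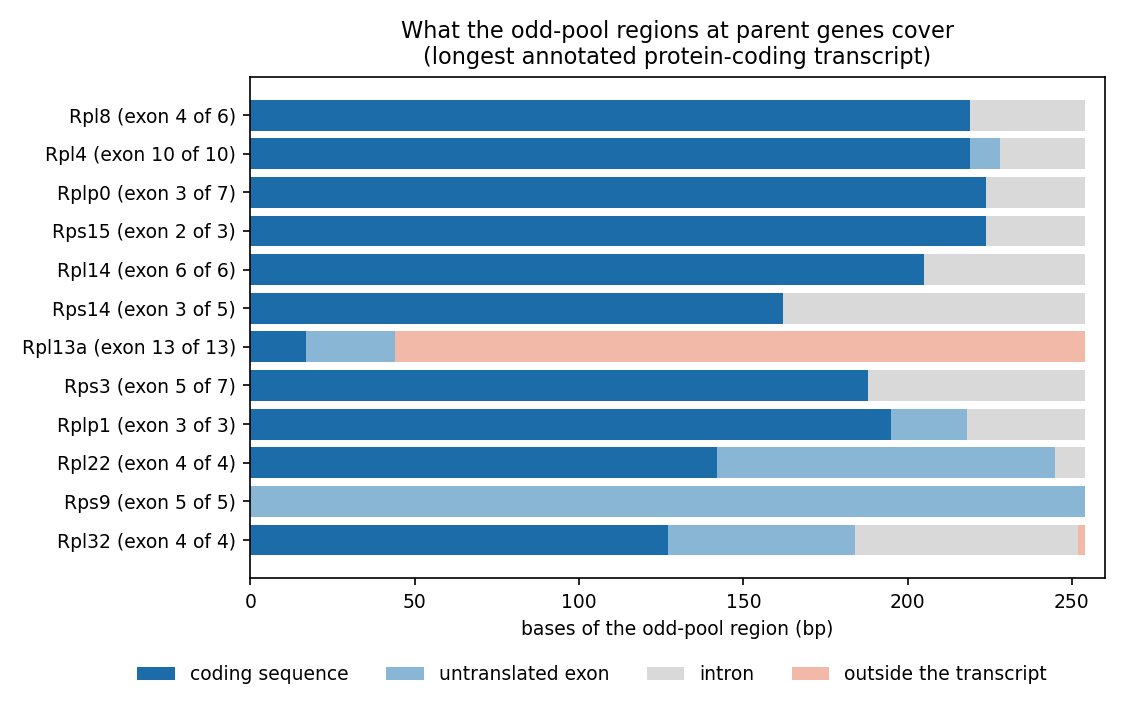
Bases of odd regions at parent genes (some are not shown), in bp of 254, divided into coding sequence, untranslated exon, intron and bases outside the longest annotated protein-coding transcript; genes are ordered by score. Coding sequence of 1 exon with a flank of intron made up the regions of most genes, and Rps9, with untranslated exon only, stood apart.

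The regions at pseudogenes held joined exons. Aligned to the spliced transcript of the parent gene, all 7 odd regions matched in sense at 98.2% to 100% identity. Rpl14-ps1, Rps16-ps2, Rpl10a-ps1 and Rpl3-ps1 matched over all 254 bases without a mismatch, and Rplp2-ps1 over 254 bases with 2 mismatches. The copies least like their parent were Rps26-ps1, with 3 mismatches over 236 aligned bases, and Rps24-ps3, with 4 over 226. Every pseudogene region covered at least 1 exon junction of the parent. Rpl14-ps1 and Rpl3-ps1 covered 3, Rps16-ps2, Rplp2-ps1 and Rps26-ps1 covered 2, and Rpl10a-ps1 and Rps24-ps3 covered 1.

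The positions on the transcripts differed from copy to copy. They ran from base 160 to 413 of 935 on Rpl14 and from 141 to 394 of 650 on Rps16. The former lay within the coding sequence, and the latter began in the 5′ UTR, with 242 of its 254 bases in the coding sequence. On Rpl3 the region lay near the end of the coding sequence, from 1001 to 1254 of 1361. On Rps26 it ran through the stop codon to base 441 of 447. The parent gene of only 1 of the 7 copies, Rpl14, held an odd region of its own, which at 14.3% (2.57% to 51.3%) was near the 16.5% of all parent genes.

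**Figure D4:**
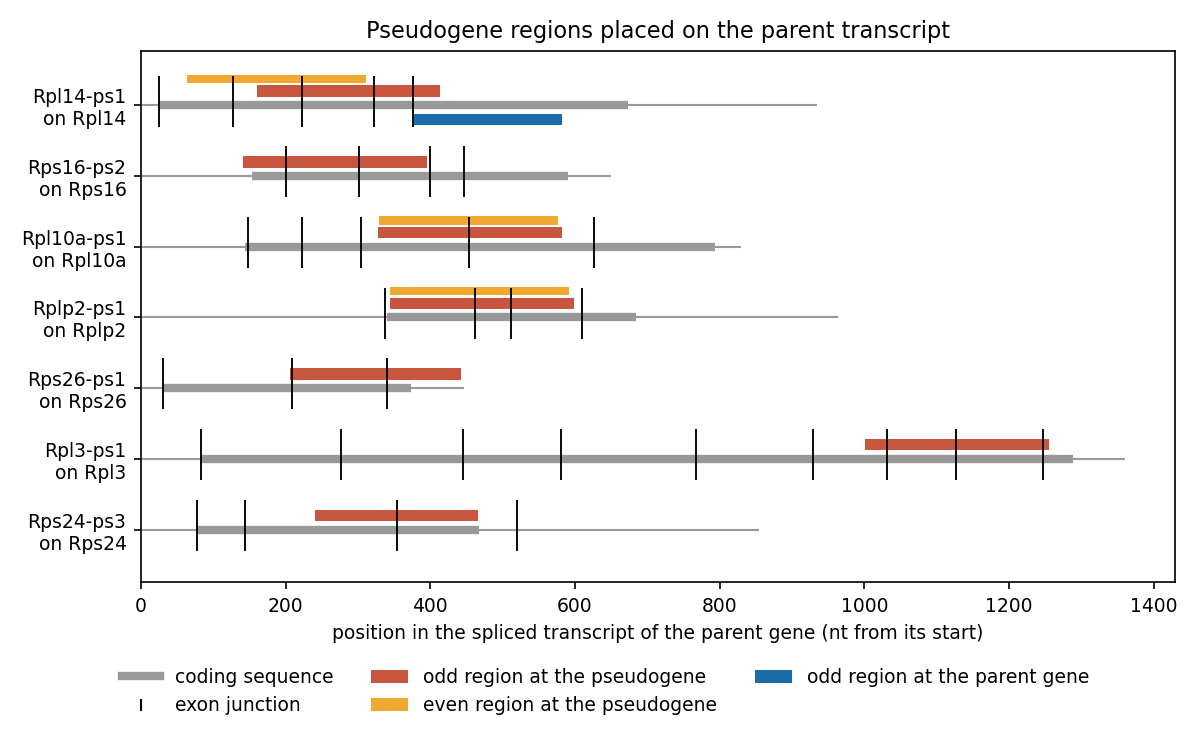
Odd (red) and even (orange) pseudogene regions placed on the spliced transcript of the parent gene, in nt from its start, with coding sequence as a thick grey line, exon junctions as black ticks and the odd region of the parent gene in blue. Each of the 7 copies covered 1 to 3 junctions, and only Rpl14 had a region at the parent gene as well, sharing 37 nt with that of its copy.

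Since the reads had been mapped uniquely, the number of times each stretch of 31 bases (31-mer) of a region occurs in mm9 was counted. The median 31-mer occurred more than 1 time in 7 of 7 pseudogene regions and 6 of 14 parent regions of the odd pool, against 16.7% of all odd regions. In the even pool it did in 4 of 4 member regions, against 19.7% of all even regions. The share of 31-mers that were unique in the genome had a median of 20.5% in pseudogene regions, from 5.36% at Rps16-ps2 to 46.0% at Rps24-ps3. It was 62.7% in parent regions and 100% over all odd regions. The members with the highest odd scores therefore lay in sequence of low uniqueness, and the read length, which sets how much of it can be mapped uniquely, is not given in the sources used here.

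A copy can be told from its parent gene where exons are joined, where bases differ, or where its region runs past the aligned stretch. A 31-mer at no such place occurs at least at both loci by construction. Over a junction, 228 of 371 31-mers of the odd pseudogene regions were unique (61.5%). Over a differing or unaligned base but no junction, 152 of 226 were (67.3%). Most of these 226 came from Rps26-ps1 (31 of 90 unique) and Rps24-ps3 (82 of 97 unique), whose regions had 18 and 28 unaligned bases. At Rpl14-ps1 the junctions made nearly all the uniqueness possible, with 86 of 90 junction 31-mers unique and 134 further 31-mers shared. At Rpl10a-ps1, 29 of 30 junction 31-mers were unique. Rps16-ps2 and Rps26-ps1 were the opposite, with 12 of 60 and 2 of 34 unique, the rest being found at other copies or loci too. At Rplp2-ps1, 32 of 60 junction 31-mers and 39 of 39 over the differing bases were unique. At parent genes, 466 of 472 31-mers that lay wholly or partly off the exons were unique (98.7%). Of those that lay on exons only, 1531 of 2664 were (57.5%), so that the intron flank added unique sequence there.

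Over whole genes, the exons of pseudogenes with an odd region had a median of 10.9% unique 31-mers, against 35.0% for pseudogenes without one. Parent genes with and without an odd region had 72.0% and 69.8%. Some families by name were large. Rpl21 had 14 named pseudogenes, Rpl30 and Rps19 had 9 each, and Rpl7a and Rpsa had 8 each. Taking the 11 parent genes with at least 5 named pseudogenes, a limit chosen after their values were seen, 0 of 11 parents (0% to 25.9%) and 0 of their 85 pseudogenes (0% to 4.32%) held an odd region. The interval of the 85 includes the 2.03% of all annotated pseudogenes. The 16.5% of all parent genes and the 4.29% of all member pseudogenes also lie within these intervals, but both shares count the large families too. Of the 78 other pseudogenes, 7 held an odd region (8.97%, 4.42% to 17.4%), an interval that does not overlap that of the 85. This difference was not tested. Because the limit followed the values and copies of the same mRNA are not independent, no absence particular to large families is read from it. The median share of unique 31-mers was 34.7% in the large families and 34.6% in the others.

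The names do not hold all copies. A search of all regions against the spliced transcripts of the parent genes, added after the values at members were seen, found 25 odd and 6 even regions outside the members that matched at 90% identity or more over at least 125 bp. The 25 odd regions had scores of 4 to 32 with a median of 8.00 and identities of 95.3% to 100%. Of them, 15 lay on an exon of an annotated gene with a Gm number, 9 overlapped no annotated gene and 1 lay in an intron of Ddah1. How many unnamed copies the genome holds was not counted, so that no share of them with a region can be given. All 25 odd regions covered at least 1 exon junction of the transcript matched. Counted with the named pseudogenes, 32 of 32 odd regions and 8 of 9 even regions at copies covered a junction. Regions matching a ribosomal protein transcript, at parents and copies together, were 45 of 2112 odd regions (2.13%) and 10 of 345 even regions (2.90%).

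The highest of these scores belonged to copies without a name. A stretch matching Rpl23, the gene of a large subunit protein, scored 32 in the odd pool at chr6:66825524-66825777 and 10 in the even pool, and the regions shared 210 bp. It matched Rpl23 at 100% identity and overlapped no annotated gene. A copy of Rpl4 on chromosome 1 held 2 odd regions, with scores of 27 and 17, which together with 13 at the parent gene made 3 odd regions of Rpl4 sequence. A copy of Rps9 on chromosome 7 scored 18 in the odd pool and 5 in the even pool. The even pool overlapped 7 of 32 odd regions at copies (21.9%, 11.0% to 38.8%), against 6.96% of all odd regions. The odd pool overlapped 7 of 9 even regions at copies (77.8%, 45.3% to 93.7%), against 42.6% of all even regions.

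By protein, 34 ribosomal proteins had an odd region at the parent gene or at a copy. Of these, 7 had both, 20 had a copy only and 7 had the parent gene only. Copies are more numerous than parent genes, with 163 named pseudogenes against 85 parent genes, and unnamed copies in the genome were not counted. The counts of 20 and 7 therefore show no preference for copies. By named gene, the share with an odd region was 4.29% of pseudogenes and 16.5% of parent genes. These shares take neither exon length nor unique sequence into account. The 7 with both were Rpl4, Rpl13a, Rpl14, Rplp0, Rps3, Rps9 and Rps14. In 6 of them the highest copy scored above the parent gene, and Rplp0, with 11 at the parent gene and 8 at the copy, was the exception. Copy and parent regions shared bases of the transcript at 4 of them, with 37 at Rpl14, 59 at Rps14, 94 at Rpl4 and 105 at Rps3.

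**Figure D5:**
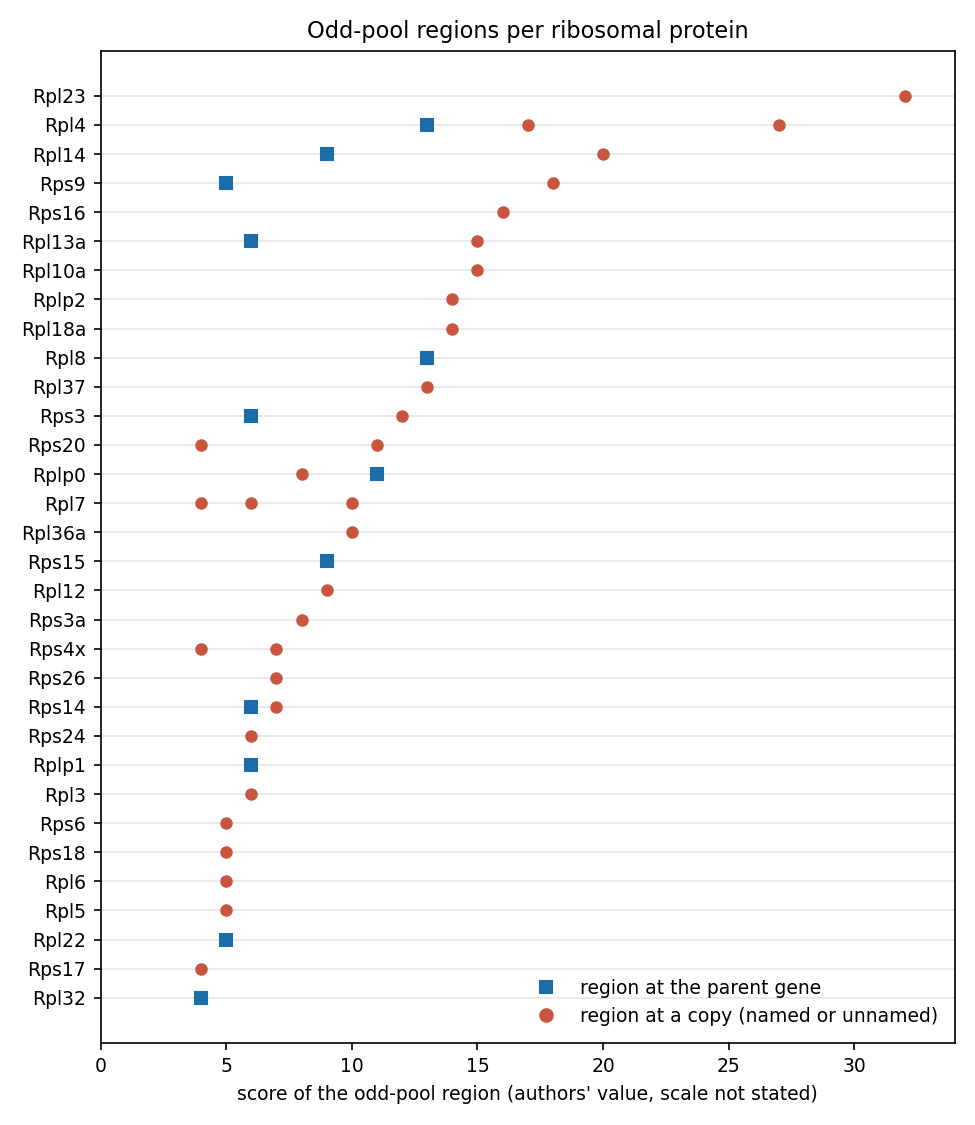
Scores of odd regions per ribosomal protein (some proteins with a parent region only are not shown), with regions at the parent gene as blue squares and regions at named or unnamed copies as red circles. Of 34 proteins, 20 had regions at copies only, and the highest scores, 32 for Rpl23 and 27 for Rpl4, were at copies. Unnamed copies in the genome were not counted, so that these counts are not rates per locus.

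Other genes of translation were looked up in the same lists, beside the 6.46% of all protein-coding genes with an odd region. Mitochondrial ribosomal protein genes, whose products work in the separate ribosome of mitochondria, held an odd region in 3 of 77 cases (3.90%, 1.33% to 10.8%), each with a score of 4, and this interval includes the background. Translation factor genes were taken by name, as those starting with Eif, Eef1 or Eef2 and a further letter or digit. This leaves out Eef2 itself. Of these 66 genes, 17 held an odd region (25.8%, 16.7% to 37.4%). The names also take in Eif4ebp1, among the 17, which is not a translation factor but a protein that binds such a factor. The parent genes, at 16.5%, lay between these lists by share of genes. Per 100 kb of exon they held 9.33 odd regions, against 8.48 in the translation factor genes and 1.64 in the mitochondrial list, beside 2.02 in all protein-coding genes. The value of 8.48 leaves out Eef2, which held 4 odd regions, so that no order between the parent genes and the translation factor genes can be read from it. Of 15 other genes of the cytosolic ribosome or with a terminal oligopyrimidine mRNA, the class of mRNA to which ribosomal protein mRNAs belong, 8 held an odd region (53.3%, 30.1% to 75.2%), and some of these are translation factor genes as well. Among them Eef2, the translocation factor, reached 38, Eef1a1, which delivers tRNA, 25, and Gnb2l1, a scaffold on the small subunit, 12, while Fau, which encodes a ribosomal protein fused to a ubiquitin-like domain, held none. Per 100 kb of exon these 15 genes held 32.9 odd regions, from 16 regions in all. Eef2 held 4 of the 16 and Eef1a1 and Gnb2l1 held 3 each. The value thus rests largely on 3 genes, and no order to the parent genes is read from it. Of 18 ribosome biogenesis genes 1 held an odd region (5.56%, 0.988% to 25.8%), near the background, and it was Ncl with a score of 8.

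The longest exact match of any probe to an odd member region was 6 to 8 nt with a median of 7, against 4 to 13 with a median of 7 over all odd regions. In the even pool it was 8 at members and had a median of 8 over all regions. The GC content of member regions had a median of 51.2% in the odd pool, against 49.6% over all odd regions, and 52.6% in the even pool, against 48.0%.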

How the data were processed

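The odd and the even library of PAM ChIRP-seq from ASCs were used, and the input was not analysed here. Per the labels and methods, the authors aligned reads with Bowtie2 to mm9, kept unique alignments and called regions with MACS2 (versions not given in the sources used here). The deposited lists hold regions of fixed width (254 bp odd, 248 bp even) with a score from the authors, which was used as it stands. They hold no read counts, so that depth and the precision it gives are unknown.

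Regions were joined to GENCODE M1 genes from 1 bp of overlap. Coordinates are 1-based, taking the deposited start as 0-based. Backgrounds were all 22380 protein-coding genes and all 5209 pseudogenes. Position classes came from the longest protein-coding transcript. Occurrences of 31-mers were counted in mm9 on both strands. Pseudogene regions were locally aligned to parent transcripts (match 2, mismatch -3, gap opening -5, gap extension -2), and all regions were searched by megablast. Pseudogenes with a region, the 10 parent genes with the highest odd score and members with an even region were named by rule; other genes were named after their values were seen. Some genes are counted but not reported by name here. Members and lists were chosen with earlier results of these data known. No test between samples was possible. Alternatives were the region midpoint, exon overlap, a score of at least the list median, unique sequence, classes by biotype, like-named genes left out and 50% reciprocal overlap. The scripts were tested on simulated data (6 of 6 checks passed). Tools were BLAST 2.17.0, samtools 1.23.1 and pysam 0.24.0, with Python 3.11.15, Biopython 1.88, numba 0.67.0, SciPy 1.17.1, NumPy 2.4.6 and matplotlib 3.10.9.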

Additional observations from a re-analysis of the deposited data

How the results depend on the processing

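Of 31 alternative values for 10 results, 26 stayed within the limits set for a change and 5 moved. Keeping only regions whose median 31-mer occurs 1 time in mm9 left 8 of 14 parent genes and 0 of 7 pseudogenes in the odd pool, and 0 of 1 parent gene and 0 of 3 pseudogenes in the even pool. This follows in part from construction, since a copy shares most of its 31-mers with its parent gene. With classes by annotated biotype alone, Rplp2-ps1 joined the parent genes and their count in the even pool was 2 in place of 1. The region midpoint, exon overlap, a score of at least the list median, leaving out like-named genes and 50% reciprocal overlap moved no count by more than 1.5 times. The stricter search for unnamed copies, with 95% identity over 200 bp, was chosen after seeing the data and left 24 odd and 4 even regions. No paired analysis was possible because there was only 1 library of either pool and samples were not tested against each other. Without read counts, the depth that limits these lists is unknown, and a gene without a region cannot be called unbound.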
